A study of Rattus norvegicus with 4 samples.

Results

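Described here are 10 genes of the Hippo pathway in cultured rat Schwann cells: the coactivators Yap1 and Wwtr1 (which encodes TAZ), the DNA-binding factors Tead1, Tead2, Tead3 and Tead4, the inhibitory kinases Lats1 and Lats2, and the target genes Ctgf and Cyr61. They were chosen by symbol, not by their values, and all 10 were found among the 30708 genes of the expression tables. The cells were unmodified S16 cells, an immortalized rat Schwann cell line, without any treatment or genetic change. The cells were grown in standard medium with L-glutamine, and the study's methods give DMEM with fetal bovine serum for S16 cells. Poly(A) RNA was sequenced from 1 population at passage 9 and 1 population at passage 39, and each population gave 2 libraries that the labels call technical replicates. They are named here the first and the second library of a passage. A single line in culture, without axons and represented by 1 population per passage, limits what the values say about Schwann cells in nerve.

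In the Hippo pathway, LATS kinases phosphorylate YAP and TAZ and thereby keep them out of the nucleus. When the kinases are less active, YAP and TAZ enter the nucleus, bind TEAD factors on DNA, and raise the transcription of genes such as Ctgf and Cyr61, which encode secreted matricellular proteins of the CCN family. In Schwann cells, YAP, TAZ and TEAD1 are known to take part in proliferation and in myelination, and the YAP/TAZ-TEAD complex has been linked to the expression of laminin receptors.

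The regions just upstream of both target genes are shown because TEAD factors bind the MCAT element, whose core GGAATG was searched on both strands (reverse complement CATTCC, and neither overlaps the other here). The sequences are those of RefSeq on build GRCr8, which is newer than the build behind the expression values, and RefSeq lists Ctgf as Ccn2 and Cyr61 as Ccn1. They cover the 250 bases before the annotated start, at chr1:22624615-22624864 on the minus strand for Ctgf and at chr2:237225690-237225939 on the minus strand for Cyr61. Each reads in the direction of transcription, and capitals mark the core motif.
Ctgf: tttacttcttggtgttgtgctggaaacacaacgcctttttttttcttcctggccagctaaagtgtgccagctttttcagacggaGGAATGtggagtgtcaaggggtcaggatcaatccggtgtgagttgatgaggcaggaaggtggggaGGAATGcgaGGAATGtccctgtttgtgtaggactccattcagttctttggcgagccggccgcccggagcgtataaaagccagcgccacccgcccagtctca
Cyr61: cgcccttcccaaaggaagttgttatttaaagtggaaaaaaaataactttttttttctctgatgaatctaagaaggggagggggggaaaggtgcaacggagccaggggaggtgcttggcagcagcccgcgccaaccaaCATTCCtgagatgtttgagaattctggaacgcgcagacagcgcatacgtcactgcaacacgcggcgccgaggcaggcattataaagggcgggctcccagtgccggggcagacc

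The Ctgf window held 3 copies of the motif, all on the strand of the gene, and their first bases lay 166, 101 and 92 bases before the start. The Cyr61 window held 1 copy on the opposite strand, 113 to 108 bases before the start. Of 33469 promoter windows of the same length, 4037 (12.1%) held at least 1 copy and 27 (0.0807%) held at least 3. Among the 6 of the 10 genes with a promoter entry, Yap1 also had 1 copy, and Wwtr1, Tead3 and Lats1 had none in this window. A match is a description of the letters and not a measured binding site.

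The expression values were RPKM, that is, reads scaled by gene length in kilobases and by 1000000 reads of the library, and the totals they were divided by, worked out from the values themselves, were between 34246093 and 41382234 per library. These totals are inferred, and are larger than the approximate depth in the study's methods. The number of reads behind each value was worked out in the same way, and the 95% intervals given below come from these reads. They cover counting error only, and not the spread between libraries or populations. PCR copies of 1 molecule are counted as separate reads, so the intervals may be too narrow even for counting error. Comparisons were limited to the 11025 genes whose mean reached 1 RPKM. Of 7 Schwann cell marker genes, 7 reached that mean, with Pmp22 at 1255 RPKM and Sox10 at 176 RPKM. Of 6 fibroblast markers, 3 did: Col1a1 at 3588 RPKM, the highest of all listed genes, Col3a1 at 65.9 RPKM and Pdgfra at 5.35 RPKM. Lum was at 0.0534 RPKM, Dcn at 0.0033 RPKM and Thy1 at 0 in every library. The 5 neuron markers summed to at most 0.0623 RPKM in any library. The 4 macrophage markers summed to at most 1.62 RPKM, mostly from Cd68, and the 4 endothelial markers to at most 0.418 RPKM.

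The libraries did not pair the way the labels say, and this bears on each value below. Within passage 9, 72% of 11023 genes had a 95% counting interval of the RPKM ratio between second and first library that excluded 1, and within passage 39 this share was 70.6%. Between the passages it was 6.25% for the first libraries and 8.85% for the second. Values are therefore given for every library, by passage as labelled and by library number. With 1 population per passage there was no replicate to test against, so no p-value was computed, and a ratio of reads compares those libraries and not the conditions.

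All 10 genes were above 4.6 RPKM in every library, and their means spanned from 4.84 RPKM for Tead4 to 926 RPKM for Ctgf. Ctgf ranked 21 and Cyr61 ranked 217 among the 30708 listed genes. Both target genes thus stood above every coactivator, TEAD factor and kinase of the set in 4 of 4 libraries. The order of the means was Ctgf, Cyr61, Wwtr1, Tead1, Lats2, Yap1, Tead2, Lats1, Tead3 and Tead4. Ranges over the 4 libraries overlapped between the neighbours Wwtr1 and Tead1, Tead1 and Lats2, Tead2 and Lats1, and Lats1 and Tead3, and did not overlap for the other 5 pairs of neighbours. Compared within each library, Wwtr1 was above Tead1 in 4 of 4 and Tead1 above Lats2 in 3 of 4. Tead2 was above Lats1 in 2 of 4, and Lats1 above Tead3 in 2 of 4. In bulk RNA, fewer cells that express a gene and less RNA per cell cannot be told apart.

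**Figure D1:**
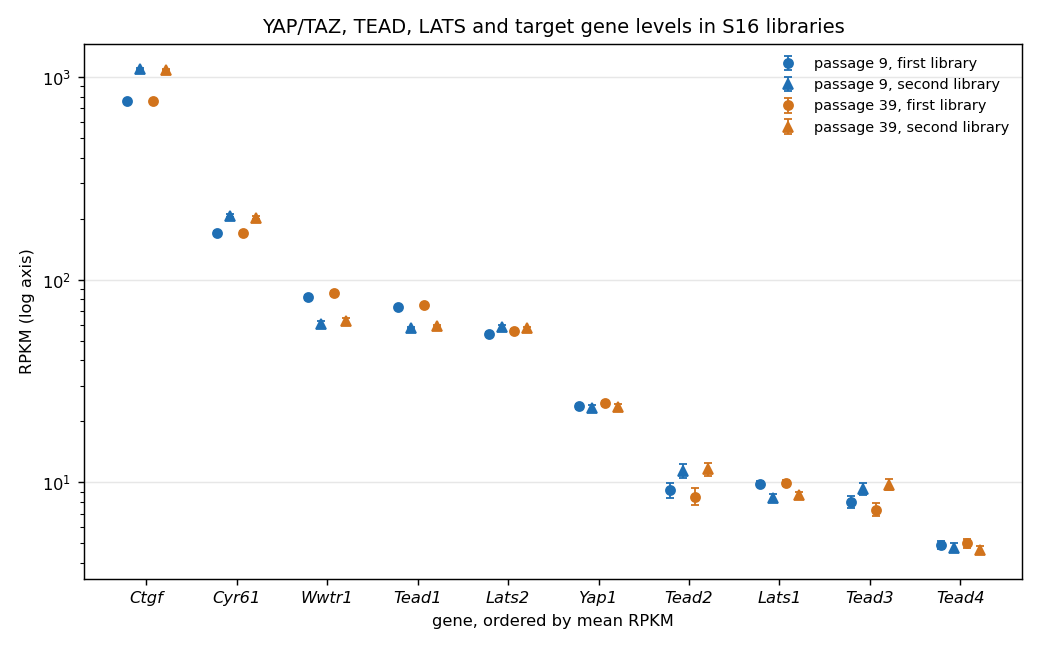
RPKM on a log axis for the 10 genes in each library, with 95% counting intervals as bars, circles for first and triangles for second libraries, blue for passage 9 and orange for passage 39. Ctgf lies highest at 760 to 1095 RPKM, and for most genes the symbols of one shape lie closer together than those of one colour.

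Among the coactivators, TAZ transcripts were more abundant than YAP transcripts by RPKM. Wwtr1 was at 82.0 RPKM in the first and 60.1 RPKM in the second library of passage 9, and at 85.6 and 62.6 RPKM in those of passage 39; pairs of values below follow the same order, first then second library. Its mean was 72.6 ± 2.17 RPKM (SD, n = 2 populations as labelled), and both first libraries lay above both second libraries. Each SD here and below is between passage means that each average a first and a second library. It therefore leaves out the difference between those libraries. Yap1 was at 23.8 and 23.4 RPKM in the passage 9 pair and 24.5 and 23.5 RPKM in the passage 39 pair, with a mean of 23.8 ± 0.338 RPKM (SD, n = 2). Its 4 values lay within a narrow range, so that it was the steadier coactivator across the libraries. The ratio of Wwtr1 to Yap1 was 3.45 and 2.57 at passage 9 and 3.49 and 2.66 at passage 39. In every library Wwtr1 therefore exceeded Yap1 by more than 2.5 times in RPKM, and the ratio was higher in the first libraries. At passage 9 Wwtr1 had 5219 and 3244 reads and Yap1 had 4310 and 3594. At passage 39 Wwtr1 had 4510 and 3957 reads and Yap1 had 3685 and 4238. The excess thus rested largely on the recovered lengths, 1538 bp for Wwtr1 and 4385 bp for Yap1.

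Tead1 was the predominant TEAD factor. It was at 73.4 and 57.9 RPKM in the passage 9 pair and 74.6 and 59.3 RPKM in the passage 39 pair, with a mean of 66.3 ± 0.948 RPKM (SD, n = 2). It made up 76.8% and 69.4% of the summed RPKM of the 4 Tead genes at passage 9 and 78.1% and 69.5% at passage 39. This share was lower in both second libraries, where Tead1 was lower while Tead2 and Tead3 were higher. Tead2 was at 9.15 and 11.4 RPKM in the passage 9 pair and 8.50 and 11.6 RPKM in the passage 39 pair, which rested on 553, 584, 425 and 696 reads. Tead3 was at 8.03 and 9.32 RPKM in the passage 9 pair and 7.35 and 9.74 RPKM in the passage 39 pair. Tead4 was the least abundant of the 10 genes, at 4.93 and 4.77 RPKM in the passage 9 pair and 5.01 and 4.64 RPKM in the passage 39 pair. The summed RPKM of the 4 Tead genes was between 83.4 and 95.5 and thus of the same order as the sum of Yap1 and Wwtr1, between 83.5 and 110.2 RPKM. TEAD genes are related in sequence, and only uniquely mapped reads were counted by the authors, so reads that match several of them equally are in none of these values.

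Of the inhibitory kinases, Lats2 was the more abundant. Lats2, which is itself a known target gene of YAP, was at 54.2 and 58.5 RPKM in the passage 9 pair and 56.0 and 57.6 RPKM in the passage 39 pair, with a mean of 56.6 ± 0.313 RPKM (SD, n = 2). Lats1 was at 9.88 and 8.39 RPKM in the passage 9 pair and 9.92 and 8.69 RPKM in the passage 39 pair, with a mean of 9.22 ± 0.120 RPKM (SD, n = 2). The ratio of Lats2 to Lats1 was between 5.49 and 6.97 and was higher in both second libraries, where Lats1 was lower.

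The target genes were the most abundant of the set and were higher in the second libraries. Ctgf was at 763 and 1095 RPKM in the passage 9 pair and 760 and 1087 RPKM in the passage 39 pair, with a mean of 926 ± 3.88 RPKM (SD, n = 2). It rested on at least 53419 reads in each library. The SD of Ctgf leaves out the difference between its first and second libraries. Cyr61 was at 170.4 and 206.9 RPKM in the passage 9 pair and 169.8 and 202.5 RPKM in the passage 39 pair, with a mean of 187 ± 1.75 RPKM (SD, n = 2). For both genes the first libraries of the 2 passages lay close together, and so did the second, without overlap between first and second. The ratio of Ctgf to Cyr61 was 4.48 in both first libraries and 5.29 and 5.37 in the second libraries of passage 9 and passage 39.

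Between the passages as labelled, the 10 genes differed little. The ratio of the mean at passage 39 to that at passage 9 was lowest for Tead2, at 0.978, and highest for Wwtr1, at 1.04. None of the 10 differed 2-fold on the log2(RPKM + 1) scale, on which 1 of 11025 genes (0.00907%) did. For none did both libraries of one passage lie above both of the other, against 6.21% of all genes tested. This says nothing more about passage, because all 10 differed without overlap by library number, which makes such a separation by passage impossible. Within libraries of the same number, 4 of 20 passage ratios had a 95% interval that excluded 1, that is, 3 of 10 in the first libraries, against 6.25% of 11023 genes, and 1 of 10 in the second, against 8.85%. Tead1 was among them at both library numbers, with a ratio of 1.02 (95% interval 1.00 to 1.03) in the first and 1.03 (1.01 to 1.04) in the second libraries. Wwtr1 had a ratio of 1.04 (1.00 to 1.09) and Lats2 of 1.03 (1.00 to 1.06) in the first libraries. The ratio of Wwtr1 in the second libraries was also 1.04, with an interval of 0.994 to 1.09, while that of Lats2 was 0.985 (0.958 to 1.01). For Ctgf the passage ratio was 0.996 (0.985 to 1.01) in the first and 0.993 (0.983 to 1.00) in the second libraries, so that a passage difference beyond these bounds was not seen at this depth. These differences of a few percent had no replicate check. The shares over all genes were not matched for level, and more reads give narrower intervals. The 10 genes had a median level of 40.2 RPKM, against 11.1 RPKM over all genes tested.

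Between the library numbers the differences were larger. Of the 20 ratios of second to first library, 17 had a 95% interval that excluded 1. For 8 of the 10 genes this held in the same direction at both passages, against 63.1% of 11023 genes tested. That share, like the others by interval over all genes, was not matched for level. Of the 8, 5 were higher and 3 lower in the second libraries, and 41.6% and 21.6% of all genes were. This balance depended on the scale of the libraries. After median-ratio scaling 3 of the 10 genes were higher and 5 lower by their intervals, against 29.6% and 28.6% of all genes, and with a common sum of each library 2 were higher and 6 lower, against 22.7% and 33.8%. All 10 genes had second libraries that did not overlap the first, against 87.7% of 11025 genes, with 5 higher and 5 lower, against 57.2% higher and 30.5% lower over all genes. A count of 10 of 10 is thus near what the whole table gives. None of the 10 differed 2-fold on the log2(RPKM + 1) scale, as 1.1% of all genes did.

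**Figure D2:**
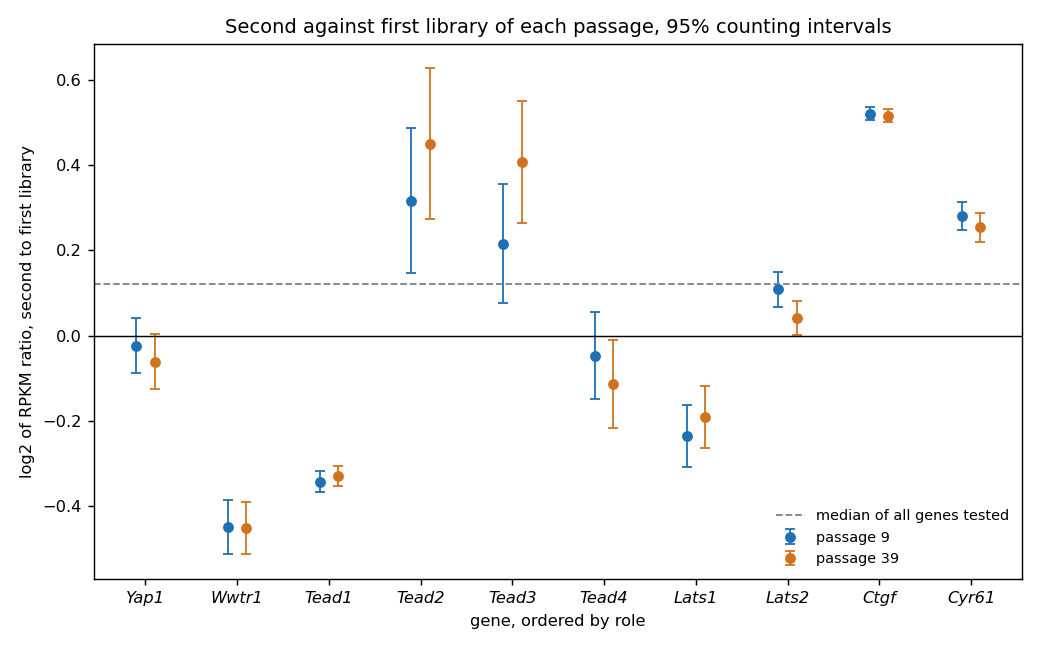
Log2 of the RPKM ratio of second to first library for the 10 genes in order of role, with 95% counting intervals, blue for passage 9 and orange for passage 39, and a dashed line at the median of all genes tested (0.12). Wwtr1, Tead1 and Lats1 lie below 0 and Tead2, Tead3, Ctgf and Cyr61 above 0 at both passages, while the intervals of Yap1 reach 0.

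Wwtr1 was lower in the second libraries, with a ratio of 0.733 (95% interval 0.701 to 0.766) at passage 9 and 0.731 (0.701 to 0.763) at passage 39. Tead1 was lower as well, with 0.789 (0.776 to 0.802) and 0.796 (0.783 to 0.809). Lats1 was at 0.850 (0.807 to 0.894) and 0.876 (0.833 to 0.921). These 3 genes of the pathway core were thus lower in both second libraries, and each gave like ratios at the 2 passages. Ctgf was higher in the second libraries, by 1.43-fold at both passages (1.42 to 1.45 at passage 9 and 1.41 to 1.44 at passage 39). Cyr61 was higher by 1.21-fold (1.19 to 1.24) and 1.19-fold (1.16 to 1.22). The target genes and their most abundant coactivator and TEAD factor therefore differed in opposite directions. Relative to genes of similar length, described below, the log2 differences were -0.67 for Wwtr1 and 0.35 for Ctgf. They were only -0.04 for Tead1 and 0.10 for Cyr61.

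Tead2 was 1.25-fold (1.11 to 1.40) and 1.37-fold (1.21 to 1.54) higher in the second libraries, and Tead3 1.16-fold (1.05 to 1.28) and 1.33-fold (1.20 to 1.47). The intervals of these less abundant genes were wider than those of Tead1. Yap1 had ratios of 0.983 (0.940 to 1.03) and 0.959 (0.917 to 1.00), and Tead4 of 0.968 (0.902 to 1.04) and 0.925 (0.861 to 0.993). For both genes at least 1 interval included 1 as deposited, but under either scaling both intervals lay below 1. Lats2 was 1.08-fold (1.05 to 1.11) and 1.03-fold (1.00 to 1.06) higher, but this direction depended on the scale of the libraries. On the log2(RPKM + 1) scale the difference of Lats2 was 0.07 as deposited, -0.01 after median-ratio scaling and -0.07 after rescaling to a common sum. The other 9 genes kept their direction under both scalings, with a difference of 0.43 and 0.37 for Ctgf, 0.18 and 0.12 for Cyr61, -0.53 and -0.59 for Wwtr1 and -0.42 and -0.48 for Tead1. The intervals of Tead3 under median-ratio scaling, and of Tead2 and Tead3 under the common sum, no longer excluded 1 at both passages, while that of Lats2 lay below 1 at both passages under the common sum.

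Across all genes tested, the median difference was 0.10 on the log2(RPKM + 1) scale, second minus first, and that of the 10 genes was 0.02. Rescaling to a common sum shifted the median of all genes by -0.13. As deposited, 65.2% of the genes whose libraries did not overlap were higher in the second libraries, but 53.7% after median-ratio scaling and 44.9% with a common sum. Among the 10 genes, 5 were higher and 5 lower as deposited, 4 higher and 5 lower after median-ratio scaling, and 4 higher and 6 lower with a common sum.

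Gene length moved with this difference. Across 11023 genes the Spearman rho between the length recovered from the RPKM values and the difference of second minus first library was -0.42, as a description over genes that share the same 4 libraries. Genes were ranked by length and cut into 50 classes of 220 or 221 genes. Each gene was set beside the median of its class, called here genes of similar length. Tead1, at 11516 bp, had a difference of -0.33 where that median was -0.29. Its class was broad in length and also held Fat1, at 17146 bp. Lats1, at 8751 bp, had -0.19 where genes of similar length had -0.20. Tead4, at 8537 bp, had -0.07 beside the same median and was thus above the median of its class. Tead1 and Lats1 thus differed about as much as the medians of their length classes did. Wwtr1, at 1538 bp, had -0.44 where the median was 0.23, and so lay 0.67 below it on the log2 scale. Ctgf, at 2052 bp, had 0.52 where the median was 0.17, while Cyr61, at 1984 bp, had 0.27 beside the same median. Relative to genes of similar length, Ctgf was thus 0.35 and Cyr61 0.10 higher. Tead2 and Tead3 were 0.14 and 0.15 higher, Lats2 0.07 higher, and Yap1 0.07 lower.

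**Figure D3:**
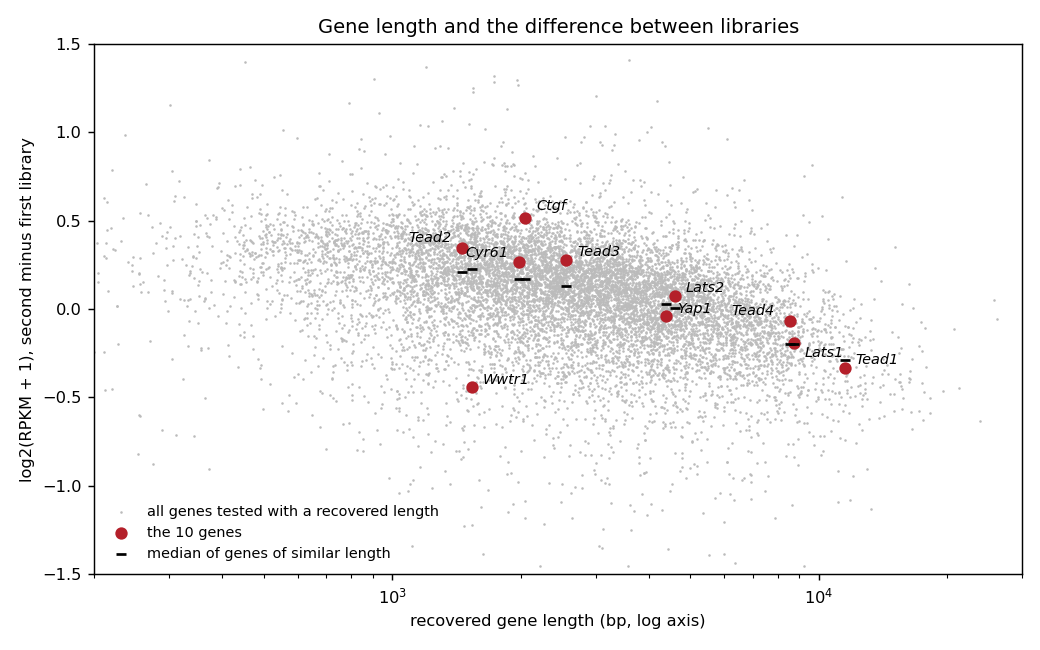
Difference in log2(RPKM + 1) between second and first library, averaged over both passages, against the recovered gene length on a log axis, for all genes tested (grey), the 10 genes (red) and the median of genes of similar length (black dashes); 96 genes lie outside the axes. Wwtr1 lies far below and Ctgf above its dash, while Tead1 and Lats1 lie close to theirs.

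Some marker genes of Schwann cells also moved with the library number. The summed RPKM of the 7 Schwann cell markers was 1880 and 1869 in the first libraries and 1845 and 1823 in the second, at passage 9 and passage 39. By their counting intervals 3 of the 7 were higher and 4 lower in the second libraries as deposited (1 and 4 after median-ratio scaling, 1 and 6 with a common sum), and S100b, a calcium-binding protein of glia, had a difference of -1.39 on the log2(RPKM + 1) scale. That of the 6 fibroblast markers was 3432 and 3445 in the first and 3933 and 3826 in the second libraries, nearly all from Col1a1, a chain of type I collagen. Col3a1, a chain of type III collagen, went the other way, from 82.8 to 50.3 RPKM at passage 9 and from 81.9 to 48.5 RPKM at passage 39, first to second library. Pdgfra was higher in the second libraries, from 4.73 to 5.89 RPKM at passage 9 and from 4.62 to 6.16 RPKM at passage 39. Of the other fibroblast markers, Lum was at most 0.101 RPKM in any library. Dcn had a value above 0 in 1 library only and Thy1 was listed at 0 in all. The part of gene length and of the marker genes in the differences of the 10 genes was not tested, and a batch that follows the library number cannot be told apart from exchanged labels.

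Other genes of the pathway were taken from 6 lists of 59 genes in all, of which 58 were matched by symbol. Foxf2, a listed target gene, was not matched. Of the 58 genes, 51 had a mean of at least 1 RPKM. Their median level was 25.0 RPKM, against 11.1 RPKM over all genes tested. The counts by counting interval in the lists below stand against 41.6% higher and 21.6% lower over all genes as deposited, 29.6% and 28.6% after median-ratio scaling, and 22.7% and 33.8% with a common sum.

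Of 10 core kinases and scaffolds, which act on or beside LATS, 10 reached 1 RPKM. Map4k4, a kinase that can activate LATS, was the highest at 118 RPKM, and Mob1b, a LATS-binding scaffold, the lowest at 5.73 RPKM. In the second libraries 4 were higher and 4 lower at both passages by their counting intervals, against 2 and 4 after median-ratio scaling and 2 and 5 with a common sum, and their median difference was -0.02 on the log2(RPKM + 1) scale. Taok1, a kinase that activates the MST kinases, was at 28.9 and 16.7 RPKM in the passage 9 pair and 29.8 and 16.7 RPKM in the passage 39 pair. It was the member of this list with a difference beyond 1.5-fold on the log2(RPKM + 1) scale, as 6.06% of all genes had. Stk4, which encodes the kinase MST1, was just under it on that scale, at 0.58, while its RPKM was 1.57-fold and 1.54-fold higher in the second libraries of passage 9 and passage 39.

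Of 15 upstream regulators, 12 reached 1 RPKM. The 3 that did not, named here after their values were seen, were Nf2, Fat4 and Dchs1. Nf2, which encodes the tumour suppressor merlin, was at 0.494 and 0.709 RPKM in the passage 9 pair and 0.415 and 0.670 RPKM in the passage 39 pair, on 96 to 186 reads. Fat4, an atypical cadherin, was at 0.274 RPKM and its ligand Dchs1 was the lowest of the list at 0.0559 RPKM. Fat1, a related cadherin, was the highest at 97.4 RPKM. Wwc1, which encodes KIBRA, a scaffold that acts with merlin, was at 1.76 and 4.40 RPKM in the passage 9 pair and 1.94 and 4.58 RPKM in the passage 39 pair. It was thus 2.50-fold (2.18 to 2.87) and 2.37-fold (2.06 to 2.72) higher in the second libraries, and 5 genes of the list were higher and 4 lower by their counting intervals. These counts were 4 and 5 after median-ratio scaling and 2 and 7 with a common sum.

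The 9 genes of the STRIPAK phosphatase complex, which inactivates the MST kinases, and of the degradation of phosphorylated YAP and TAZ lay between 4.03 RPKM for Btrc and 45.4 RPKM for Csnk1d. By their counting intervals 5 were higher and 2 lower in the second libraries, but 2 and 2 under either scaling. Of the 4 VGLL cofactors, which bind TEAD factors in place of YAP and TAZ, Vgll3 was at 137 RPKM, above Tead1, and Vgll4 at 22.8 RPKM. Vgll2 was below 0.2 RPKM in each library and Vgll1 was listed at 0 in every library. Both Vgll3 and Vgll4 were lower in the second libraries at both passages by their counting intervals, also under both scalings, with a difference of -0.04 and -0.21 on the log2(RPKM + 1) scale.

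**Figure D4:**
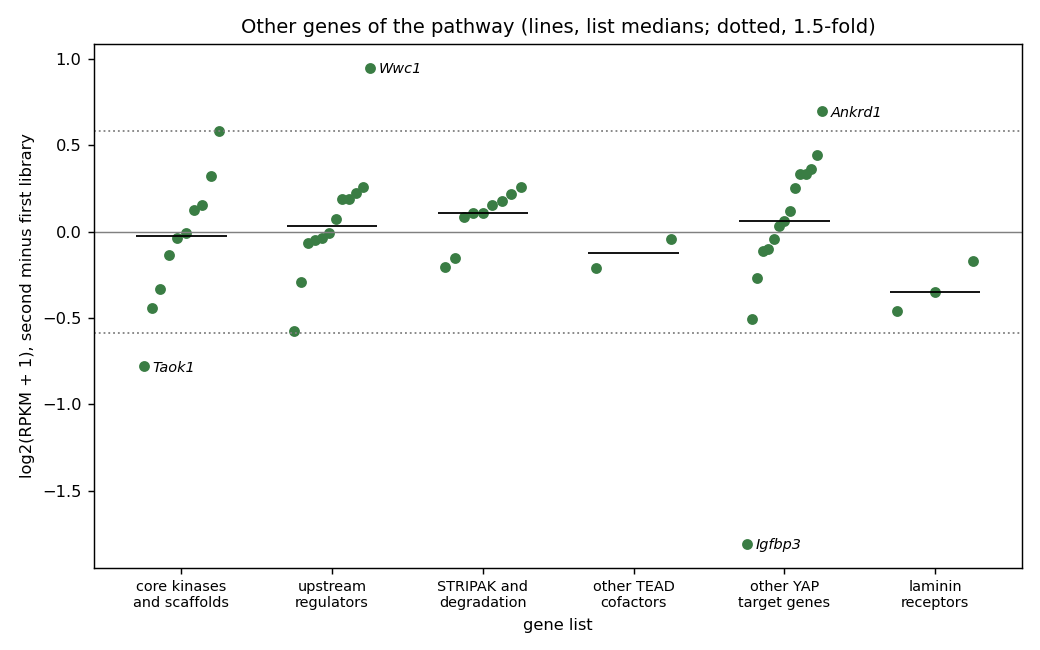
Difference in log2(RPKM + 1) between second and first library, averaged over both passages, for each gene of the 6 lists with a mean of at least 1 RPKM; black lines are list medians and dotted lines 1.5-fold. Wwc1 and Ankrd1 lie above the upper and Taok1 and Igfbp3 below the lower dotted line, and the list medians lie between -0.35 and 0.11.

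Of 17 other target genes of YAP, 16 were matched and 15 reached 1 RPKM. They did not share the direction of Ctgf and Cyr61 throughout. By their counting intervals 7 were higher and 5 lower in the second libraries as deposited, 5 and 6 after median-ratio scaling, and 4 and 7 with a common sum. Ankrd1, a transcriptional cofactor and common readout of YAP activity, was at 19.1 and 31.9 RPKM in the passage 9 pair and 18.5 and 30.4 RPKM in the passage 39 pair, or 1.67-fold (1.56 to 1.79) and 1.64-fold (1.53 to 1.77) higher in the second libraries. Igfbp3, a secreted binding protein of insulin-like growth factors, was at 14.98 and 3.49 RPKM in the passage 9 pair and 15.2 and 3.70 RPKM in the passage 39 pair. Its mean was thus 4.19-fold higher in the first libraries, opposite to Ankrd1. Ccdc80, a secreted matrix protein, was the highest of the list at 287 RPKM and Nt5e, an ectonucleotidase, the lowest at 0.355 RPKM.

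Of 4 laminin receptor genes, 3 reached 1 RPKM. Itgb1, the integrin chain shared by many laminin and collagen receptors, was at 462 RPKM, Dag1, which encodes dystroglycan, at 173 RPKM and Itga6, the integrin alpha chain that pairs with Itgb1 or Itgb4, at 137 RPKM. All 3 were lower in the second libraries at both passages by their counting intervals, also under both scalings, with differences of -0.17, -0.35 and -0.46 on the log2(RPKM + 1) scale as deposited. Itgb4 was the lowest at 0.548 RPKM. The genes of this list were between 4227 and 6161 bp long, against a median of 2621 bp over all genes tested. Relative to the median of genes of similar length, Itgb1 was 0.18, Dag1 0.36 and Itga6 0.38 lower on the log2 scale.

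Over the 4 libraries, the 3 genes with the pattern nearest to that of Ctgf, by Euclidean distance of log2(RPKM + 1) values around the mean of each gene, were Psmd14, Slc16a13 and Rpl4, at distances of 0.00781 to 0.0107. For Cyr61 they were Ap1m1, Sgtb and Ubtf, at 0.00129 to 0.00504. For Yap1, whose pattern was nearly flat, they were LOC100363372, Gpatch2 and Baz1b, at 0.00468 to 0.00946. With 4 libraries that fall into pairs, such patterns are shared by many genes.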

How the data were processed

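Poly(A) RNA-Seq of 4 libraries of unmodified S16 cells was used, 2 from 1 population at passage 9 and 2 from 1 population at passage 39. Per the labels and the methods, the authors aligned 50 bp single-end reads to the rat rn5 genome with STAR, kept uniquely mapped reads and counted them with HTSeq without strand, so that overlapping antisense transcripts cannot be told apart. The authors deposited RPKM values; the gene lengths and the exact totals behind them are not given in the sources used here, and the methods give an approximate depth per cell line, smaller than the totals inferred below. Versions of the tools are not given either.

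Library totals, gene lengths and whole reads were recovered from ratios of the RPKM values for 18113 of 18114 genes above 0 in at least 2 libraries, after the method was tested on simulated data. The simulated data were built from the recovered totals and lengths. That test therefore cannot show that these are right for the deposited values. A common factor can remain hidden. Differences used log2(RPKM + 1), which understates changes of low genes, among genes whose mean reached 1 RPKM. Intervals are exact (Clopper-Pearson, or conditional binomial for ratios) at 95%. No test was run. Alternatives were 2 scalings, a pseudocount of 0.1 RPKM, other minimums, each library left out and, added after seeing the data, similar-length medians (50 length classes). Genes named beyond the 10 were, per list, the highest, the lowest and those past 1.5-fold, and the 3 nearest patterns; Nf2, Fat4, Stk4, Vgll2, Vgll4, Dag1, Itga6 and the marker genes given as examples were named after their values were seen. One marker gene of the lists is not reported here. The genes and lists were chosen with earlier results of these data known. Computations ran in Python 3.11.15 with scipy 1.17.1, pandas 2.3.3 and numpy 2.4.6.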

Additional observations from a re-analysis of the deposited data

How the results depend on the processing

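No paired analysis was possible because each passage is 1 population, which leaves no replicate within a passage for a test with the library number as a block; the differences by library number were taken within each passage, as a description. Between library numbers 121 genes differed 2-fold, a count that was 244 after rescaling to a common sum and 253 with a pseudocount of 0.1 RPKM, and between 121 and 132 without each library. The number that differed 2-fold between passages, 1, was 0 with a minimum of 5 RPKM and between 9 and 27 without each library. The number with passages that did not overlap, 685, was 379 with that minimum and between 5362 and 6377 without each library, since a passage then holds 1 library number only. The median difference of the 10 genes between library numbers, 0.02, was -0.13 with a common sum, -0.071 after median-ratio scaling and 0.084 relative to genes of similar length, and between -0.01 and 0.04 without each library. All 10 genes reached 0.1 RPKM and 9 reached 5 RPKM, the exception being Tead4. For the differences of single genes between library numbers, 4 of 80 values under the alternatives changed sign: Lats2 under both scalings, and Tead4 (0.13) and Lats1 (0.003) relative to genes of similar length. For those between passages 19 of 70 did, all of them without 1 library. Reads limit Tead2 most, with 425 in its shallowest library. Sequencing a second population at each passage would be needed for any test.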
